A study of Mus musculus with 16 samples.

Results

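Stellate cells lie between the sinusoids and the hepatocytes of the liver, store vitamin A as retinyl esters and make the collagen of scar tissue when they are activated. The epithelial cells of the bile ducts, the cholangiocytes, line the channels that carry bile out of the liver and keep the keratins and adhesion molecules of a simple epithelium. Both are minor cell types beside the hepatocytes, which make up most of the liver, and both are usually recognised by a few marker genes. The 9 genes described here are the stellate markers Lrat, Des, Pdgfrb, Reln and Col1a1 and the bile duct markers Krt7, Krt19, Sox9 and Epcam. Each was followed from 20 kb before to 20 kb after its annotated ends in mouse assembly mm9, and every DNase hypersensitive site (DHS) in these windows was counted. A DHS is a stretch of chromatin where DNase I cuts far more often than around it, as it does at active promoters and enhancers.

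The nuclei came from whole livers of mice about 8 weeks old, male and female, either C57BL/6J, here called B6, or CAST/EiJ, here called CAST, both inbred, with no treatment or cell sort stated. DNase I was used at 32 units in every library. CAST descends from wild mice of another subspecies, and the study set the sexes beside each other within each strain to find regulatory elements behind sex differences in the liver and their dependence on strain. The 16 libraries formed 4 groups of 4, and each group was deposited as 1 list of DHS, called after its libraries had been merged. With 1 list per group there was no spread between replicates and no test, so every difference below is a description of these lists. The lists of male B6, female B6, male CAST and female CAST held 38751, 26271, 39562 and 24888 DHS. Joining peaks that overlapped by at least 1 bp gave 51482 regions in all, of which these lists held 74.6%, 50.0%, 76.2% and 47.3%. The height of a DHS is given as its fold enrichment, the number of pooled fragments over the summit divided by the local background after MACS2, the peak caller, adds 1 to each, with a 95% interval for counting error only. The genome-wide background was 15.4 and 13.9 fragments in B6 males and females and 14.3 and 7.94 in CAST males and females, and the weakest DHS called at that background had a fold enrichment of 1.90, 1.94, 1.90 and 2.24, in the same order. Where 4 values follow each other below, they are in this order too. A gene without a DHS is therefore one whose signal lay below about these heights, which does not show that its chromatin was closed. In whole liver, fewer cells of a type and less open chromatin in each such cell cannot be told apart.

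The windows of the 9 genes held 12 of the 51482 regions, made of 23 peaks. They lay at 5 genes: 4 at Reln, 3 each at Col1a1 and Sox9, and 1 each at Des and Pdgfrb. The windows of Lrat, Krt7, Krt19 and Epcam held none in any list. The B6 lists held 8 of the 12 regions in males and 5 in females, and the CAST lists held 7 in males and 2 in females. A single region, over the Sox9 promoter, was in all 4 lists, where 35.6% of all regions were. As many as 7 of the 12 were in a single list, which was so for 35.2% of all regions. Across all protein-coding genes, 75.0% had at least 1 region in such a window and the median was 2 regions, whereas 5 of the 9 markers had one and their median was 1. Counted per 100 kb of window, the median was 0.80 regions for the 9 markers and 3.25 for all protein-coding genes.

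**Figure D1:**
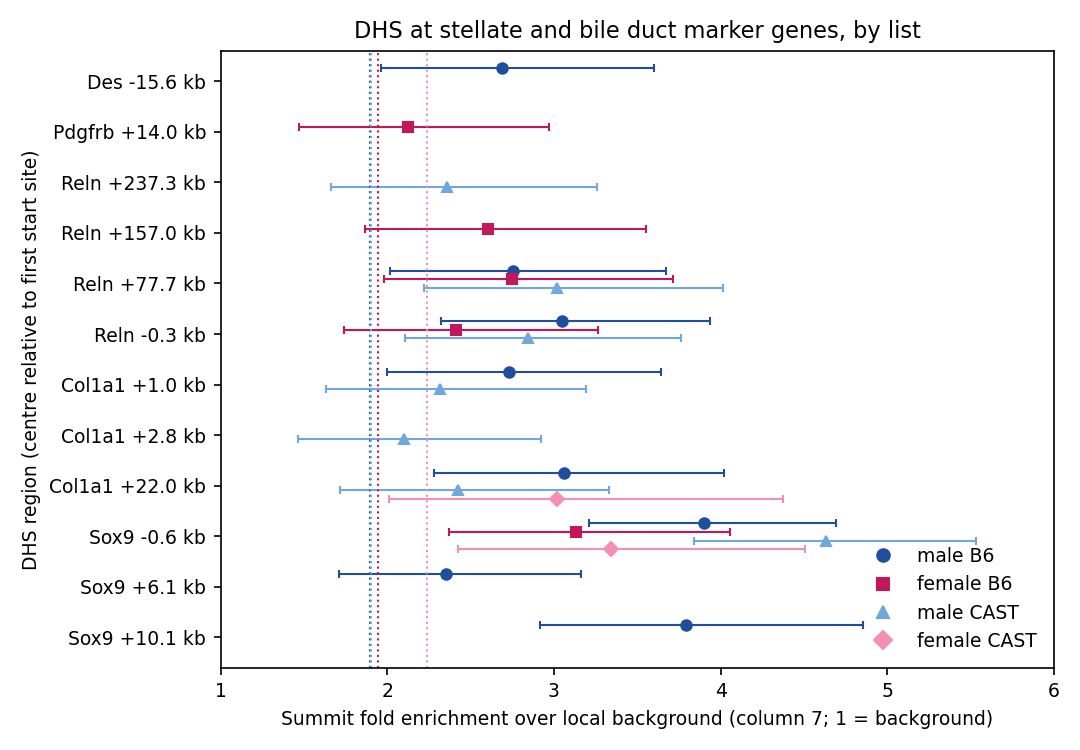
Summit fold enrichment (x axis, linear, beginning at the background level of 1) of the 12 DHS regions (rows, with the distance of the region's centre from the first annotated start site) in the 4 lists. Points are single pooled lists, bars are 95% counting intervals, and dotted lines mark the weakest DHS called at the genome-wide background in the list of the same colour. The Sox9 promoter region at -0.6 kb is the only row with a point from every list, and its male CAST point, at 4.63, is the highest of all.

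The DHS present were weak ones. In male B6 the members' fold enrichment ran from 2.35 to 3.90 with a median of 2.90, beside 3.49 over the whole list, and 6 of 8 lay below the list's median. In female B6 all 5 lay below the median of 3.28, with values from 2.12 to 3.13. In male CAST 6 of 7 lay below the median of 3.74, and the range was 2.099 to 4.63. In female CAST both lay below the median of 4.06, at 3.02 and 3.34. For 9 of the 22 values the lower end of the counting interval reached below the weakest called height of its own list. A small loss of reads could therefore have left such a region out of that list. A region's absence from another list was not set against the weakest height there, and it too may be no more than a small loss of reads. The female CAST list had the lowest background, the highest weakest height, the fewest regions overall and the fewest member regions.

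Lrat makes lecithin retinol acyltransferase, the enzyme that esterifies retinol for storage and a marker tied to the vitamin A store of stellate cells. Its single annotated start site, on the minus strand at chr3:82707895, had no DHS in any list. The closest region of any list lay 42.6 kb upstream, in male CAST alone with a fold enrichment of 2.77. The closest region found in all 4 lists lay 99.0 kb upstream, 4195 bases from the start site of Fgg, the fibrinogen gamma chain gene of hepatocytes, with fold enrichments of 5.15, 4.48, 5.19 and 5.60. Lrat has a CpG-rich start, the kind of promoter that was open most often in these livers. The 250 bases before the RefSeq start site (RefSeq promoter table on GRCm38.p6, found by exact match at mm9 chr3:82707897-82708146, minus strand, not annotated as exon) are shown because they hold 18 CpG dinucleotides, in capitals, and lay outside every DHS.
Lrat promoter: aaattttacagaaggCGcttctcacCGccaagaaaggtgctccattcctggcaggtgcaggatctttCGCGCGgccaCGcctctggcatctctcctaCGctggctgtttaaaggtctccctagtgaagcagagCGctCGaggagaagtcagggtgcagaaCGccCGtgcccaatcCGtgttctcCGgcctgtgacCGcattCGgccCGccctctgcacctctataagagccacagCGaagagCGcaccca

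Des encodes desmin, the muscle-type intermediate filament that stellate cells share with muscle. Its window held 1 region, intergenic and 15.2 kb upstream of the first start site at chr1:75341021-75341655, with a fold enrichment of 2.69 (1.96 to 3.60) from 43 summit fragments in male B6. The other lists had no DHS there. The Des start sites themselves, the first of them CpG-rich with an observed-to-expected CpG ratio of 0.71 over the surrounding 1 kb, had none in any list. The nearest region of all 4 lists lay 42.2 kb upstream over the start of Dnpep, an aspartyl aminopeptidase gene of broad expression, and had a fold enrichment of 10.7, 9.17, 10.7 and 10.6 in the 4 lists, about as high in each.

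Reln encodes reelin, a secreted glycoprotein known for guiding neurons in the developing brain and made in the liver by stellate cells. Its gene spans 460 kb on the minus strand of chromosome 5, and its window held 4 regions, or 0.80 per 100 kb, beside 5.28 at Col1a1, 2.07 at Des and 1.25 at Pdgfrb. The promoter region at chr5:21850241-21851471 covered the first exon, its coding and untranslated bases, and the CpG-rich sequence before it. Fold enrichment there was 3.05 (2.32 to 3.94) in male B6, 2.41 (1.74 to 3.26) in female B6 and 2.84 (2.104 to 3.76) in male CAST, and the female CAST list had no DHS. The 3 intervals overlap each other. The peak was 1231 bp wide in male B6, 785 bp in female B6 and 956 bp in male CAST, and its summits lay 130, 24 and 84 bases inside the gene, no more than 106 bases apart. The 250 bases before the RefSeq start site (GRCm38.p6, exact match at mm9 chr5:21850524-21850773, minus strand) lie within this DHS and are shown for comparison with Lrat. They hold 37 CpG dinucleotides, in capitals, at a GC content of 80.0%, against 18 at 59.2% for Lrat.
Reln promoter: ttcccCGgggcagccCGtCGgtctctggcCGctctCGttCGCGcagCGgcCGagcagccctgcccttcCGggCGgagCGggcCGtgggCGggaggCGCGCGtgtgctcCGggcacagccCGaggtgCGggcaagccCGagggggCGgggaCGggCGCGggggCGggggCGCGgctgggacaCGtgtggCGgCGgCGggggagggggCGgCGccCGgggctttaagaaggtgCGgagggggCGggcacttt

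The other 3 Reln regions were intronic. The one at chr5:21772543-21773100, 77.7 kb into the gene by its centre, was found in the same 3 lists as the promoter, at 2.75 (2.02 to 3.67) in male B6, 2.75 (1.98 to 3.72) in female B6 and 3.02 (2.22 to 4.01) in male CAST. Those values differ by less than their counting error, and the summits lay within 176 bases. The non-coding gene Gm16110 has the nearest start site. The other intronic regions, at chr5:21613104-21613354 in male CAST with 2.36 and at chr5:21693432-21693679 in female B6 with 2.61, were each in a single list. The 300 bases around the male CAST summit of the shared intronic region, mm9 chr5:21772643-21772942, plus strand, are shown as the stretch of the gene outside its promoter that was open in more than a single list. Its GC content of 37.7% is low beside that of the promoter and beside the median of 49.0% over all summit windows. Capitals mark CCAAT, the core of the site bound by NF-Y, searched on both strands and found in the summit windows of 35.5% of all regions.
Reln intronic DHS: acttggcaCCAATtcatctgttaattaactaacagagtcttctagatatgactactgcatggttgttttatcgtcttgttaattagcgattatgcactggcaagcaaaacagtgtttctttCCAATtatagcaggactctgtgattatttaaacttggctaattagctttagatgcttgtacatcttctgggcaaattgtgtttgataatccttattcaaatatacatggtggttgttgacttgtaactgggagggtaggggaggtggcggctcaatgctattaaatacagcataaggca

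Col1a1 encodes the alpha 1 chain of type I collagen, the main fibre of liver scar. A region 0.76 kb past the first start site, in an intron at chr11:94798298-94798680, was in both male lists and in neither female list, a pattern held by 9.38% of all regions. Fold enrichment was 2.73 (2.00 to 3.64) in male B6 and 2.31 (1.63 to 3.19) in male CAST, from 44 and 35 summit fragments. Both lay below the median of their lists, at percentiles 30.6 and 12, and with lists of equal size no member region kept this pattern. A weaker region over a non-coding exon of the gene, chr11:94800226-94800489, was found in male CAST alone at 2.099 (1.46 to 2.92). The third region, chr11:94819203-94819845, lay 4.85 kb past the end of the gene with Gm17329 as its nearest start site, and had 3.06 (2.28 to 4.02) in male B6, 2.43 (1.72 to 3.33) in male CAST and 3.02 (2.01 to 4.37) in female CAST. Its summits lay 22156, 21920 and 22067 bases past the first start site, in the same order. The 300 bases around the male B6 summit of the intronic region, mm9 chr11:94798252-94798551, plus strand and not annotated as exon, are shown because they were the only member window with a match to the CTCF consensus. That summit lay 864 bases past the first start site. The male CAST summit lay 1077 bases past it, outside the stretch shown. CTCF is a zinc finger protein known for binding at chromatin loop ends. Capitals mark that match, read on the minus strand, and a GC box (GGGCGG on either strand). A CTCF match was in 1.10% of all summit windows and a GC box in 19.97%.
Col1a1 intronic DHS: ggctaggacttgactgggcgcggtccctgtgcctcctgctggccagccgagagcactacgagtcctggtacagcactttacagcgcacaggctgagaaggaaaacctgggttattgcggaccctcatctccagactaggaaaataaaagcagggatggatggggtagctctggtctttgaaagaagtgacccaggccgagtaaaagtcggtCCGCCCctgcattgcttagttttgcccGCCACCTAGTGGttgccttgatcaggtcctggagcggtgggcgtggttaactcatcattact

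Pdgfrb encodes the receptor for the B chain of platelet-derived growth factor, through which stellate cells are driven to divide. Its window on chromosome 18 held 1 region, in an intron 13.91 kb past the first start site and 238 bp wide, in female B6 alone. Fold enrichment there was 2.12 (1.47 to 2.97) from 32 fragments, at percentile 4.35 of its list. Both annotated Pdgfrb start sites had no DHS in any list. Just outside the window, by 4.97 kb, lay a region in the neighbouring Csf1r, the receptor gene that marks Kupffer cells, the macrophages of the liver. It was in all 4 lists, at 3.63, 2.98, 6.66 and 5.30 as deposited, and it is given as the closest such region to Pdgfrb.

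Together the 5 stellate markers had a promoter DHS, defined as a region within 2.5 kb of any annotated start site, at 2 genes in male B6 and male CAST, at 1 gene in female B6 and at none in female CAST. The 18 other stellate genes, which were listed for the same cell type, had a promoter DHS at 7, 3, 3 and 1 genes in the 4 lists, or 38.9%, 16.7%, 16.7% and 5.56%. Of all protein-coding genes, 54.2%, 49.4%, 53.6% and 46.6% had one, also highest in male B6 and lowest in female CAST. Of these 18, the highest in male B6 was Vim, the intermediate filament vimentin of mesenchymal cells, at 6.40, 5.03, 5.83 and 4.596 in the 4 lists. Vim was the only one of the 18 with a promoter DHS in every list, and it is also expressed by endothelial and immune cells. Acta2, the smooth muscle actin of activated stellate cells, Bgn and Col1a2, which encode the matrix proteins biglycan and the alpha 2 chain of type I collagen, and the stellate globin gene Cygb had none in any list.

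**Figure D2:**
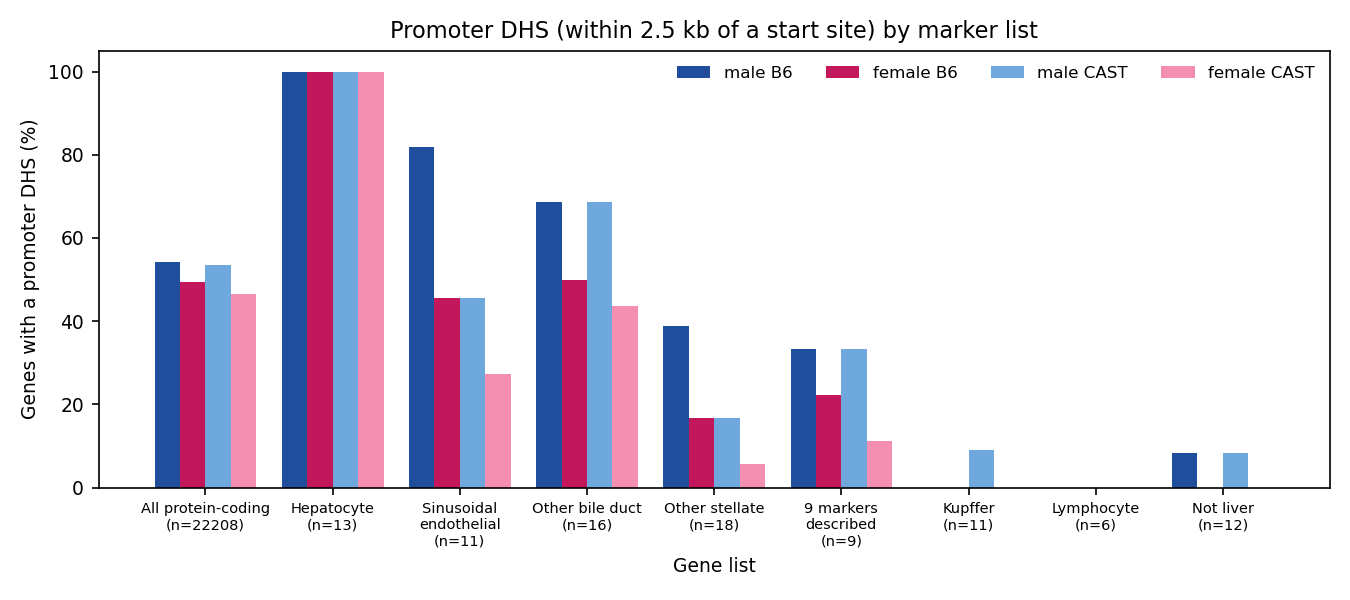
Percentage of genes with a DHS within 2.5 kb of an annotated start site (y axis, from 0 to 100) in each of the 4 lists, for all protein-coding genes and for 8 marker lists, with the number of genes under each. Each bar is a single pooled list and has no error bar. The 9 markers reach 33.3% in both male lists, 22.2% in female B6 and 11.1% in female CAST, below the bars for all genes in every list, while the hepatocyte bars stand at 100%.

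Among the bile duct markers, Krt7 and Krt19 encode keratins of simple epithelia, Epcam the epithelial cell adhesion molecule, and Sox9 a transcription factor of bile duct development. Only Sox9 had a DHS in its window, and whole liver does not show which cells gave it. For Krt7 the closest region of any list lay 89.9 kb upstream, in male B6 with 2.37, and the closest of all 4 lists 93.0 kb upstream with 3.32, 2.82, 3.24 and 3.47. Krt19 lay in the emptiest stretch: no region of any list was within 100 kb, and the closest of all 4 lists, 170.7 kb upstream, was the promoter of the translation factor gene Eif1, at 6.87, 6.87, 6.46 and 6.58. Epcam had no region in its window, and its own promoter was below the calling level in every list.

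The Epcam start site is poor in CpG. The 250 bases before the RefSeq start site (GRCm38.p6, exact match at mm9 chr17:88035069-88035318, plus strand) are shown as those of a CpG-poor marker, beside the CpG-rich Lrat and Reln. They hold 8 CpG dinucleotides, in capitals, at a GC content of 56.4%.
Epcam promoter: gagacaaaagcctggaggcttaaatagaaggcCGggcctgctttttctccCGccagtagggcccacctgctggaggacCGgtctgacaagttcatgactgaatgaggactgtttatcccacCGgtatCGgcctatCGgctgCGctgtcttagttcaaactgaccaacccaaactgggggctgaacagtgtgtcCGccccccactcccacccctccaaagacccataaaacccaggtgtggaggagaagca

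The Sox9 promoter region at chr11:112642028-112643824 was the strongest and broadest of the 12. It covered untranslated bases of the Sox9 first exon and the start of BC006965, a non-coding RNA gene that runs the other way. In B6 its fold enrichment was 3.90 (3.21 to 4.69) in males and 3.13 (2.37 to 4.06) in females, and in CAST it was 4.63 (3.84 to 5.53) in males and 3.34 (2.42 to 4.51) in females, from 110, 55, 119 and 41 summit fragments. The intervals of the sexes overlapped in each strain. Male over female, the ratio was 1.25 in B6 and 1.39 in CAST, but over all regions shared by the sexes the median ratio was 1.32 and 1.19, and divided by it the ratio was 0.94 and 1.16. The −log10 q-value, which grows with depth, was 29.6, 10.5, 39.2 and 8.66 in the same order. The peak was 1620, 1541 and 1720 bp wide in male B6, female B6 and male CAST. In female CAST the region was made of separate peaks, a 499 bp one with 3.34 and a 504 bp one with 2.64, the second of them over the Sox9 start site. The summit lay 8 bases past the Sox9 start in male B6, and at -1109, -1114 and -1150 bases from it in female B6, male CAST and female CAST. The region therefore had an upstream part that held the summit in 3 lists and a part at the start site that held it in male B6. Every ratio of this region with male B6 therefore sets the start-site summit against the upstream one, and gives no direction for either part.

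The upstream summit is shown, as the sequence at the top of the only marker region in all 4 lists, by the 300 bases around the male CAST summit, mm9 chr11:112642274-112642573, plus strand, within BC006965 but not annotated as exon. Capitals mark TGTTTAC, the core recognised by the FOXA factors, here read on the minus strand as its complement, and a GC box, also on the minus strand. A FOXA match was in 6.59% of all summit windows. The sequence printed is that of mm9, and CAST variants are not shown.
Sox9 upstream DHS: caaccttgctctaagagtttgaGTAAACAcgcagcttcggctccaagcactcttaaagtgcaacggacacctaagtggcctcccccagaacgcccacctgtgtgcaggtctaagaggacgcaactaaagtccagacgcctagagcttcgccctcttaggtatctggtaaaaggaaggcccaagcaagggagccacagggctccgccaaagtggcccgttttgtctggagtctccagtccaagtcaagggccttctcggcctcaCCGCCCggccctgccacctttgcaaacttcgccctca

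The other Sox9 regions were intergenic, downstream of the gene, and in male B6 alone. The one at chr11:112653451-112653877, 10.2 kb from the start site by its summit, had 3.79 (2.91 to 4.85) from 61 fragments and a −log10 q of 15.97. It was at percentile 55.5 of its list, and was the strongest member region found in a single list. The one at chr11:112649477-112649835 had 2.35 (1.71 to 3.16). The map by distance showed 9 regions within 100 kb of Sox9, those of its window included. Of the 9, 3 were in all 4 lists, the promoter region among them. The highest of these, chosen after its values were seen, lay 49.7 kb upstream with a fold enrichment of up to 14.5.

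**Figure D3:**
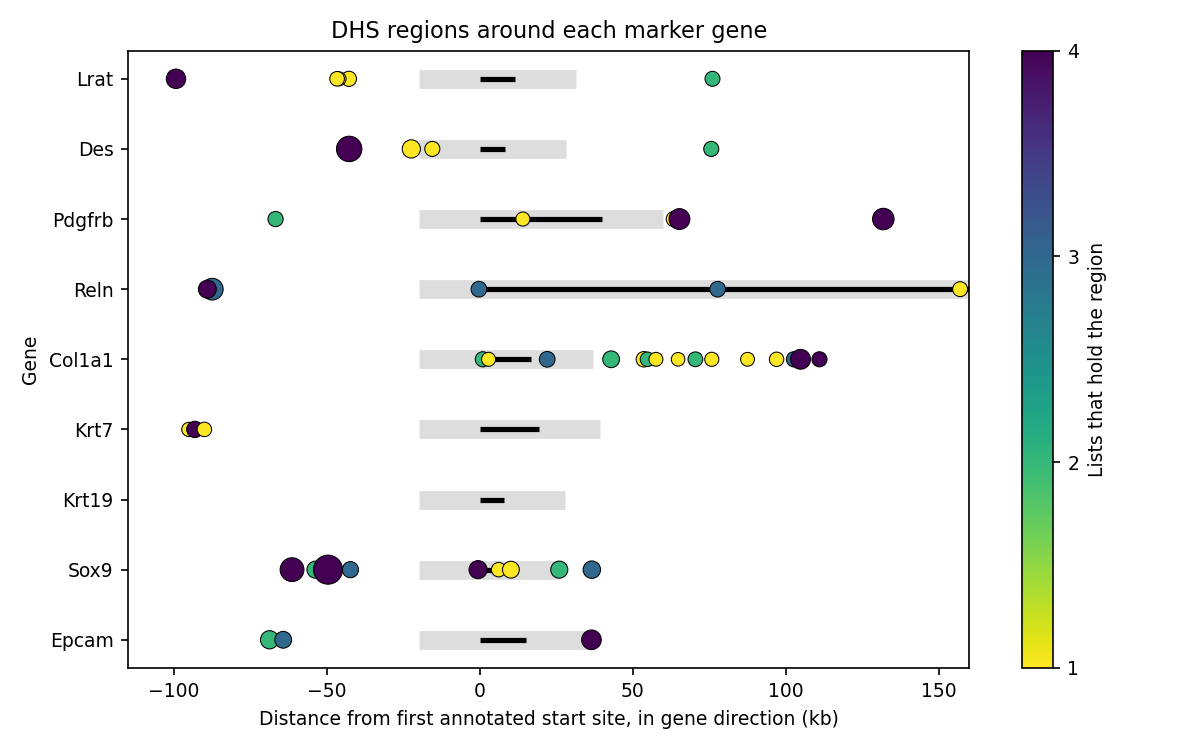
DHS regions of any list by distance from the first annotated start site (x axis, kb, in the direction of the gene) at each of the 9 genes (rows). Black bars are genes, grey bars the windows with 20 kb on each side, and each circle is a region, larger for a higher fold enrichment and coloured by how many of the 4 lists hold it. Rows end at 100 kb beyond the gene, and Reln is cut short, so regions further into or past it are not drawn. Of the 53 regions within 100 kb of a gene, 12 lie inside the windows, and the Krt19 row is empty.

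Of the 16 other bile duct genes, 12 had a promoter DHS in some list, or 75.0% beside 57.2% of all protein-coding genes, and 7 had one in all 4 lists, or 43.8% beside 44.5%. Their median stood at 3.5 regions per window, beside 2 for all genes and 0 for the 4 markers. The highest in male B6 were Anxa4, an annexin of epithelia, at 7.30, and Krt8, the keratin that hepatocytes also make, at 6.02. Both were in every other list, Krt8 at 4.87, 8.04 and 5.86 and Anxa4 at 3.89, 6.24 and 6.49. Aqp1, a water channel gene, Cftr, the chloride channel gene, and Cldn4, a gene of epithelial junctions, had none. Hepatocytes also express several genes of that list, among them Krt8, Krt18, Onecut1 and Cdh1, so a DHS there cannot be assigned to bile duct cells.

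Markers of the other liver cells were read with the same rule. All 13 hepatocyte genes had a promoter DHS in every list, with a median of 9 regions per window, and the highest in male B6 were Asgr1, a subunit of the asialoglycoprotein receptor, at 9.93, and the transcription factor gene Hnf4a at 6.73. Of 11 sinusoidal endothelial genes, 10 had one in some list and 2 in all 4; Stab2, a scavenger receptor gene, stood at 6.39 in male B6, and the receptor gene Tie1 at 5.20, and Flt4 had none. Of 11 Kupffer genes only Csf1r had one, at 2.83 in male CAST. C1qa, Cd5l, Cd68 and Clec4f were among the 10 without. The 6 lymphocyte genes had none, among them Cd3e, Cd3g and Cd79a. Of 12 genes of other tissues only Pax6, a gene of eye and pancreas, had one, at 2.26 in male B6 and 2.25 in male CAST, and Cdx2, Gcg, Krt20 and Krt5 had none. In male B6 the promoter DHS of Pax6 at 2.26 lay below those of all 3 markers that had one. These were Col1a1 at 2.73 (2.00 to 3.64), Reln at 3.05 (2.32 to 3.94) and Sox9 at 3.90 (3.21 to 4.69). Only the Col1a1 interval reached down to the Pax6 value. By list, 9, 5, 5 and 3 of the 11 endothelial genes had one, while the share of all protein-coding genes ran from 54.2% in male B6 to 46.6% in female CAST.

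**Figure D4:**
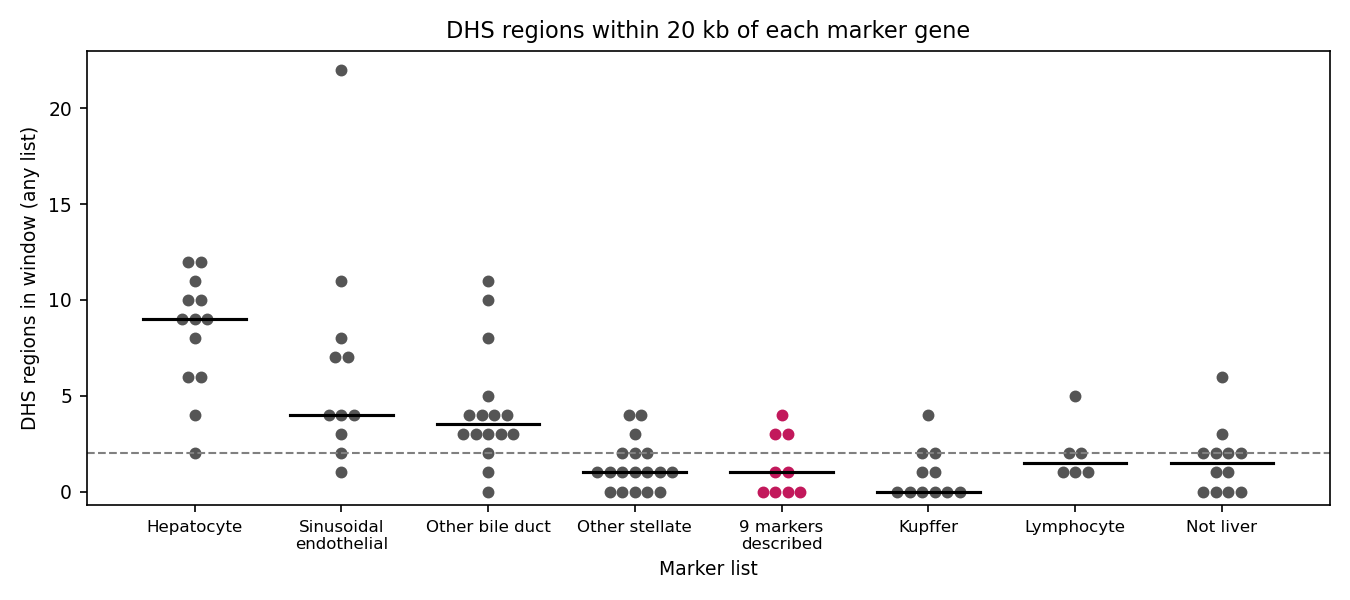
Number of DHS regions of any list (y axis) in the window of each gene, from 20 kb before to 20 kb after it, by marker list. Points are genes, horizontal bars are medians, the 9 markers are in colour and the dashed line is the median of 2 over all protein-coding genes. The 9 markers reach at most 4 regions, at Reln, with a median of 1, and hepatocyte genes a median of 9.

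Set beside all genes, a promoter DHS was found in B6 at 3 of the 9 markers in males (54.2% of 22208 protein-coding genes) and at 2 in females (49.4%), and in CAST at 3 in males (53.6%) and at 1 in females (46.6%). In any list it was 3 of 9, Reln, Col1a1 and Sox9, where all genes gave 57.2%, and in all 4 lists it was Sox9 alone, where all genes gave 44.5%. Across genes, these shares differed with the CpG content of the start site. A gene was called CpG-rich when the 1 kb around any annotated start site had an observed-to-expected CpG ratio of at least 0.6 and a GC content of at least 55%. Of all genes, 43.9% were CpG-rich, and 86.4% of these had a promoter DHS in some list, compared with 34.2% of CpG-poor genes. Lrat, Des, Reln and Sox9 were CpG-rich, with highest ratios of 0.74, 0.71, 1.02 and 0.80, and of these Reln and Sox9 had a promoter DHS. Col1a1, Pdgfrb, Krt7, Krt19 and Epcam were CpG-poor, with highest ratios of 0.49, 0.41, 0.58, 0.42 and 0.47, and of these Col1a1 had one. All 13 hepatocyte genes were CpG-poor too, and all 13 had a promoter DHS.

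Other motifs were counted in the 300 bases around the summit of each region in its highest list, on both strands, and matches of different motifs were allowed to overlap. A GC box was in 5 of the 12 member windows (19.97% of all windows) and CCAAT in 3 (35.5%). TEAD (GGAATG, in 14.9% of all windows) and SOX (ACAATGG, 3.24%) were each in 1, at the non-coding exon of Col1a1. No window held HNF4 (CAAAGTCCA, 1.67%), C/EBP (TTGCNNAA, 17.2%), HNF1 (GTTAATNAT, 2.03%), ETS (CCGGAAG, 5.35%), AP-1 (TGANTCA, 9.38%), STAT5 (TTCNNNGAA, 10.2%) or the CArG box (1.44%). Except for the Reln promoter, at 78.3% GC, the member summits had a GC content of 37.7% to 61.3%, around the median of 49.0% over all regions.

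Between the sexes, the differences of the marker windows were mostly ones of presence, and their direction turned with the size of the lists and, in B6, with the window. With lists of equal size the windows held 3 regions in male and 4 in female B6, and 1 in male and 2 in female CAST, in place of 8 and 5, and 7 and 2. The gene bodies alone held 4 in male and 5 in female B6, and 6 in male and 1 in female CAST. With every list scaled to the genome-wide background of female CAST the windows held 8, 4, 6 and 2. The counts that follow are those of the lists as deposited. In B6 the male and female lists held 10 member regions between them, 5 in the male list only, where all regions gave 36.4%, and 2 in the female list only, where they gave 5.13%. Those in the female list only were the Pdgfrb and Reln introns described above. The CAST lists held 7, of which 5 were in the male list only (40.3%) and none in the female list only (3.90%). The 5 male-only regions of B6 lay at Des (1), Col1a1 (2) and Sox9 (2), and those of CAST at Reln (3) and Col1a1 (2), so that only the intronic Col1a1 region was male-only in both strains. Between the strains, the male lists held 10 member regions, 2 in CAST only (20.9%) and 3 in B6 only (19.1%), and the female lists held 6, 1 in CAST only (18.3%) and 4 in B6 only (22.6%). Limited to a strain, no member region was shared by the B6 lists and missing from CAST (3.32% of all regions), nor shared by the CAST lists and missing from B6 (3.62%).

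Where a member region was in both lists of a comparison, its fold enrichments were set against each other after division by the median ratio over all shared regions, which was 1.32 for male over female B6, 1.19 for male over female CAST, 1.06 for CAST over B6 males and 1.19 for CAST over B6 females. None of the 11 such comparisons passed 1.5-fold in either direction, as 5.22% of all shared regions did between the sexes in B6, 5.87% in CAST, 11.2% between the strains in males and 8.40% in females. The ratios ran from 0.67 for the downstream Col1a1 region to 1.16 for the Sox9 promoter, both of them male over female CAST. The Col1a1 ratios set summits at different bases of a region against each other, as given above. Without that division, 99.8%, 96.9%, 73.5% and 94.8% of the regions past 1.5-fold were higher in the group named above first, compared with 50.2%, 56.4%, 59.8% and 59.2% after it. The Sox9 promoter, the only region with all 4 comparisons, gave 0.94, 1.16, 1.12 and 0.90 in the same order, of which those with male B6, 0.94 and 1.12, compare different summits.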

How the data were processed

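DNase-seq was done by the study on liver nuclei, and groups came from the library titles. Per the methods, the authors mapped unique reads with Bowtie2, B6 to mm9 and CAST to mm9 carrying CAST variants with coordinates converted back, called peaks with MACS2 on the merged libraries of each sex and strain, and removed blacklisted regions and duplicate-read peaks. The deposited values per peak are the fold enrichment (a ratio of summit pileup to background), the −log10 p-value, the −log10 q-value, an integer display score and the summit offset, and the authors made them separately in each list. No other columns were present. Reads mapped to different genomes in the 2 strains, and the part of this in strain differences was not tested.

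Here, Python 3.11.15, numpy 2.4.6, pandas 2.3.3 and scipy 1.17.1 were used. Summit pileup and background were recovered from fold and p-value (in each list, 99.86% or more of the pileups came out whole, to a tolerance of 0.02), and gave exact Poisson 95% intervals. Peaks overlapping by at least 1 bp were joined, and the highest peak stood for a list. Gene models were GENCODE M1, and RefSeq promoters held 5 of the 9 genes: Krt19, Sox9, Col1a1 and Pdgfrb had no entry. Named were all 9 genes, their promoter, highest and sex- or strain-limited regions, neighbouring genes, and from each other marker list the 2 genes with the highest promoter fold in male B6 and up to 4 without a promoter DHS, some of which are not reported here. The members, the marker lists and the tests were chosen with earlier results of these data known. Recovery, joining and motif search were tested on simulated data. The alternatives were a 50% overlap, a stricter q-value, lists of equal size, lists scaled to the lowest genome-wide background, windows of 10 kb, gene bodies alone, a promoter limit of 1 kb, no centring and percentiles.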

Additional observations from a re-analysis of the deposited data

How the results depend on the processing

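No paired analysis was possible because each group was deposited as 1 pooled list, and for the same reason no library could be left out. Values are given in the order male B6, female B6, male CAST, female CAST, and the counts as reported were 8, 5, 7 and 2 regions and 3, 2, 3 and 1 promoters. Lists scaled to the lowest background, windows of 10 kb, a promoter limit of 1 kb and fold enrichments without centring moved none of the counts by more than 1.5 times. With peaks at or above the pooled median −log10 q of 15.7, the marker windows held 2, 0, 1 and 0 regions and the markers 1, 0, 1 and 0 promoter DHS, and 0 regions were in all 4 lists. With lists of equal size (24888 peaks each) the windows held 3, 4, 1 and 2 regions, so that each male list held fewer than the female list of its strain, and the markers had 2, 2, 1 and 1 promoter DHS, 0 regions were limited to the male lists of both strains, and 1 was in both B6 lists only. The gene bodies alone held 4, 5, 6 and 1 regions, so that the direction between the sexes turned in B6 and not in CAST. With a 50% overlap of both peaks, 0 regions were in all 4 lists, since the narrow female CAST peaks over the Sox9 promoter were no longer joined to the broad ones. A difference of 20 percentile points in place of 1.5-fold gave 1 region between the sexes in B6 and 1 in CAST. Between the strains it gave 1 in males and 0 in females. The share of all shared regions past 20 points was not computed, so these counts cannot be read as high or low. With windows of 100 kb, chosen after the data were seen, the lists held 42, 24, 38 and 18 of 53 regions. Of the 53, 14 were in all 4 lists (35.6% of all regions), 8 were limited to both male lists (9.38%), and 2 were in both B6 lists only (3.32%). In the same windows 1 region passed 1.5-fold between the sexes in B6 (5.22% of all shared regions did) and 1 in CAST (5.87%). Between the strains 4 passed in males (11.2%) and 2 in females (8.40%). These wider windows hold promoters of neighbouring genes. A DHS list gives no value below its threshold, which limits what can be said of genes without a DHS.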
